A study of Mus musculus with 9 samples.

Results

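B2m and Tfrc encode proteins of the cell surface, and both were measured in mouse cardiac tissue by array probes printed as 20 spots each. Each gene was taken as the 20-spot probe whose RefSeq identifier in the scanner files is NM_009735 (B2m) or NM_011638 (Tfrc). These were 2 of the 15 probes with 20 spots, among 59709 probes on the array in all.

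The study profiled total RNA on 9 lncRNA and mRNA arrays in 3 groups of 3. The WT arrays held tissue of the strain B6SV129F1 wild-type, with no surgery named. The TAC arrays held tissue of the same strain after TAC surgery, letters that usually stand for transverse aortic constriction, a pressure load on the left ventricle. The CnA arrays held tissue of the strain Myh6-CnA, a name that usually stands for calcineurin A driven by the Myh6 promoter, which is active in cardiomyocytes; the labels name no wild-type strain background for it. The labels give no sham operation, age, sex or time after surgery, and no animal identity. Every error and p-value of a group or comparison thus measures the spread between these arrays. Errors over the spots of an array measure the spread within it.

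B2m encodes beta-2 microglobulin, the small invariant chain that pairs with class I major histocompatibility heavy chains and is needed for their display of peptides to T cells. It is made by nearly all nucleated cells and its transcription is raised by interferons. Tfrc encodes transferrin receptor 1, which takes up iron-loaded transferrin, and its messenger RNA is stabilised through iron-responsive elements when a cell is short of iron. The products meet at Hfe, a class I-like protein that pairs with beta-2 microglobulin and binds transferrin receptor 1. Both genes are often used as reference genes to normalise expression assays, and both probes belong to such a set on this array.

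The start regions of both genes are shown because class I genes and iron genes are known for different control elements there. The stretches come from RefSeq promoter windows on GRCm38.p6, whereas the array design names mm9, so that their coordinates hold for GRCm38.p6. The B2m stretch lies at chr2:122147537-122147596 on the plus strand and covers bases -150 to -91 before the start site at 122147687. The Tfrc stretch lies at chr16:32608886-32608915 on the plus strand and runs from base -10 to base 20 of the upstream of its start sites, at 32608896.
B2m: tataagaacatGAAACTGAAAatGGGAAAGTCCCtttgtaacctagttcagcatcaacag
Tfrc: gtaggtgtACGTGcggaaggaagTGACGta
Capitals in B2m mark the core letters GAAANNGAAA of an interferon-stimulated response element at bases -139 to -130, and GGGNNNNNCCC, the outer letters of a kappaB site, at -127 to -117. Capitals in Tfrc mark ACGTG, the core of a hypoxia response element, at bases -2 to 3, and TGACG, letters from the core of a cyclic AMP response element, at 14 to 18. The searches covered both strands of 32851 promoter windows of 300 bases and took in CCAAT and TATAA as well, and no match in the stretches shown overlaps that of a different motif. GAAANNGAAA was found in 3.44% of all windows and GGGNNNNNCCC in 14.0%. ACGTG was found in 19.6% of windows, TGACG in 20.8%, CCAAT in 37.4% and TATAA in 24.9%. The whole B2m window also held GGGNNNNNCCC at -187 to -177, TGACG at -78 to -74 and, on the minus strand, at 45 to 49, and CCAAT on the minus strand at -53 to -49. TATAA lay there at -30 to -26 and, unmarked at the start of the stretch shown, at -150 to -146, with an overlapping match on the minus strand at -151 to -147. The windows of Tfrc held neither GAAANNGAAA nor GGGNNNNNCCC. These matches describe letters only, and no measurement on the arrays bears on the factors that bind such elements.

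Both probes were bright on every array. The B2m probe exceeded 98.2% to 99.1% of the probes of its array, and the Tfrc probe 95.9% to 97.6%. No spot of either was saturated, and every spot used was well above background. Outlier flags removed 6 of 180 B2m spots and 2 of 180 Tfrc spots. The SD between spots of one array was 0.07 to 0.16 on the log2 scale for B2m and 0.09 to 0.17 for Tfrc. The SE of an array's mean over spots was 0.018 to 0.035 for B2m and 0.021 to 0.038 for Tfrc, below every distance between the WT arrays given next.

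The arrays differed in overall brightness and in their scatter. The 75th percentile of signal intensity was 441 ± 13.6 on the WT arrays, 268 ± 8.97 on the TAC arrays and 289 ± 9.03 on the CnA arrays (SD, n = 3 each), and no WT array overlapped another group. Levels are therefore given as scaled log2 signal, the log2 intensity minus that of the array's 75th percentile. The median probe had an SD of 0.23 over the WT arrays, 0.11 over the TAC arrays and 0.15 over the CnA arrays. WT replicate 1 stood apart from WT replicates 2 and 3 in B2m, so that results resting on it are given with and without it. Because the B2m signal itself singled it out, the B2m p-values without that array show dependence on 1 array. They are no independent support for a difference.

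B2m signal was highest and even in the TAC arrays, lower and even in the CnA arrays, and scattered in the WT arrays. Its scaled log2 signal was 8.11, 8.10 and 8.23 on TAC replicates 1 to 3. On CnA replicates 1 to 3 it was 7.35, 7.24 and 7.31. On WT replicates 1 to 3 it was 8.19, 7.03 and 6.74. WT replicate 1 thus lay among the TAC arrays, while the other WT arrays lay below all CnA arrays. The group means were 8.15 ± 0.07 for TAC, 7.32 ± 0.77 for WT and 7.30 ± 0.06 for CnA (SD, n = 3 each). In that order the WT arrays overlapped the arrays of both neighbours.

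The scatter of B2m in WT was present spot by spot. The scaled log2 signal of the B2m spots ran from 7.87 to 8.35 on WT replicate 1, from 6.89 to 7.18 on WT replicate 2 and from 6.62 to 6.88 on WT replicate 3. These are the spots without an outlier flag, and they did not overlap between the 3 WT arrays. A flagged spot of WT replicate 2, at 6.72, lay within the range of WT replicate 3. In intensity, before any scaling, the B2m means of spots were 124696, 58090 and 48318 on WT replicates 1 to 3. They were 72550, 76403 and 79556 on the TAC arrays, and 46132, 43092 and 47584 on the CnA arrays.

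**Figure D1:**
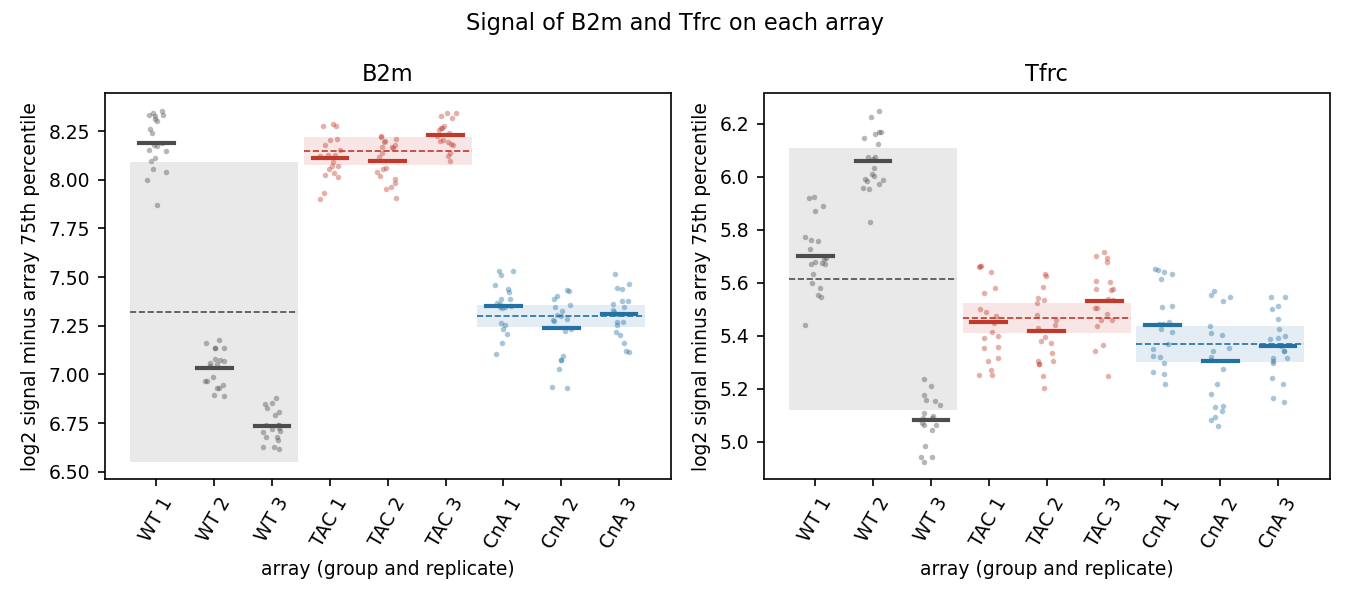
The vertical axes show log2 signal minus the log2 75th percentile of the array, for B2m on the left and Tfrc on the right, on separate scales, with 1 column per array. Points are spots without an outlier flag, thick bars are array means, dashed lines are group means and shaded bands are ± 1 SD over 3 arrays. The TAC and CnA arrays of B2m form separate narrow bands at 8.15 and 7.30, and the WT arrays spread widely in both genes.

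None of the 6 tests of the genes, B2m or Tfrc in each of 3 comparisons, passed an adjusted p of 0.05 by limma with Benjamini-Hochberg adjustment over 44224 probes, and 2 of the 6 had an unadjusted p under 0.05. The same rule called 60.2% of all tested probes between TAC and WT, 56.7% between CnA and WT, and 17.4% between CnA and TAC. The fit gave each group its own mean and pooled the spread of the 3 groups, so that the wide WT scatter also entered the comparison of CnA with TAC. Of all 15 probes with 20 spots, 9 were called between TAC and WT and 9 between CnA and WT, and 4 between CnA and TAC.

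B2m measured 0.83 higher on the log2 scale in TAC than in WT, or 1.78-fold (SE 0.32, 95% interval 0.09 to 1.56), with a limma adjusted p of 0.0524 and overlapping groups. The median of all tested probes in that comparison was 0.32, 79.6% of them had a lower signed difference than B2m, and 64.2% had a difference smaller in size. Without WT replicate 1 the difference was 1.26 with an adjusted p of 6.2e-05 by limma, where 63.6% of probes were called. Without WT replicate 2 it was 0.68 with an adjusted p of 0.153, and without WT replicate 3 it was 0.54 with an adjusted p of 0.155, both by limma. With array weights it was 1.09 with an adjusted p of 0.000283 by limma, where 72% were called. The weights of WT replicates 1 to 3 were 0.174, 2.19 and 0.524, so that the weighted WT mean leaned on WT replicate 2.

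That difference depended on how the arrays were put on one scale. Among the 1750 tested probes with a mean scaled log2 signal above 6, the median difference between TAC and WT was 0.93, so that B2m lay near other bright probes. Quantile normalization brought this median to 0.15 and the B2m difference to 0.036, with an adjusted p of 0.917 by limma. Cyclic loess gave 0.0012 and no scaling 0.11. When the arrays were scaled to the other 13 probes with 20 spots, the B2m difference was 1.02 with an adjusted p of 0.0168 by limma, where 69.2% of probes were called. The median of the bright probes was 0.22 without scaling and 1.13 with this 20-spot scaling, both above B2m. That of all tested probes was -0.40 and 0.51. These settings differ from the reported one only by a shift common to all probes of an array.

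B2m did not pass the test between CnA and WT. The log2 difference was -0.021 (SE 0.32, 95% interval -0.76 to 0.72), with a limma adjusted p of 0.962 and overlapping groups. The sign turned without WT replicate 1, where CnA was 0.41 higher with an adjusted p of 0.015 by limma and 60.8% of probes were called. It stayed negative under quantile normalization, at -0.60 with an adjusted p of 0.0825 by limma. The difference was also positive with array weights, at 0.25, and without CnA replicate 2, at 0.011, neither past the threshold. Without WT replicate 2 it was -0.16 and without WT replicate 3 it was -0.31, with adjusted p of 0.732 and 0.405 by limma.

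B2m was lower on every CnA array than on any TAC array. The log2 difference was -0.85 (SE 0.32, 95% interval -1.59 to -0.11), which is 0.555-fold, and the limma adjusted p was 0.11 with the spread pooled over all 3 groups. The median of all tested probes was -0.05 and that of the bright probes was -0.23, and 3.47% of tested probes had a lower difference than B2m. Fitted on the TAC and CnA arrays alone, the same difference had an SE of 0.08 and an adjusted p of 0.00085 by limma, where 27.3% of probes were called. With all groups but without WT replicate 1, the adjusted p was 0.00103 by limma and 26.9% of probes were called. The adjusted p by limma was 0.127 without WT replicate 2 and 0.0643 without WT replicate 3.

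The size of this B2m difference between CnA and TAC moved less with the scaling than those against WT. It was -0.63 under quantile normalization with an adjusted p of 0.133 by limma. It was -1.05 when scaled to the other 20-spot probes, with an adjusted p of 0.0358 by limma and 29.5% of probes called. With array weights it was -0.83 with an adjusted p of 0.00257 by limma and 34.2% of probes called. B2m was thus lower in CnA than in TAC under every alternative tried, from -1.05 to -0.63, while its adjusted p ran from 0.00085 to 0.315. Some of these alternatives, such as another filter or leaving out a WT array, cannot change the difference itself and alter only its p. In whole tissue, fewer cells of a type that makes B2m and less B2m RNA per cell cannot be told apart.

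**Figure D2:**
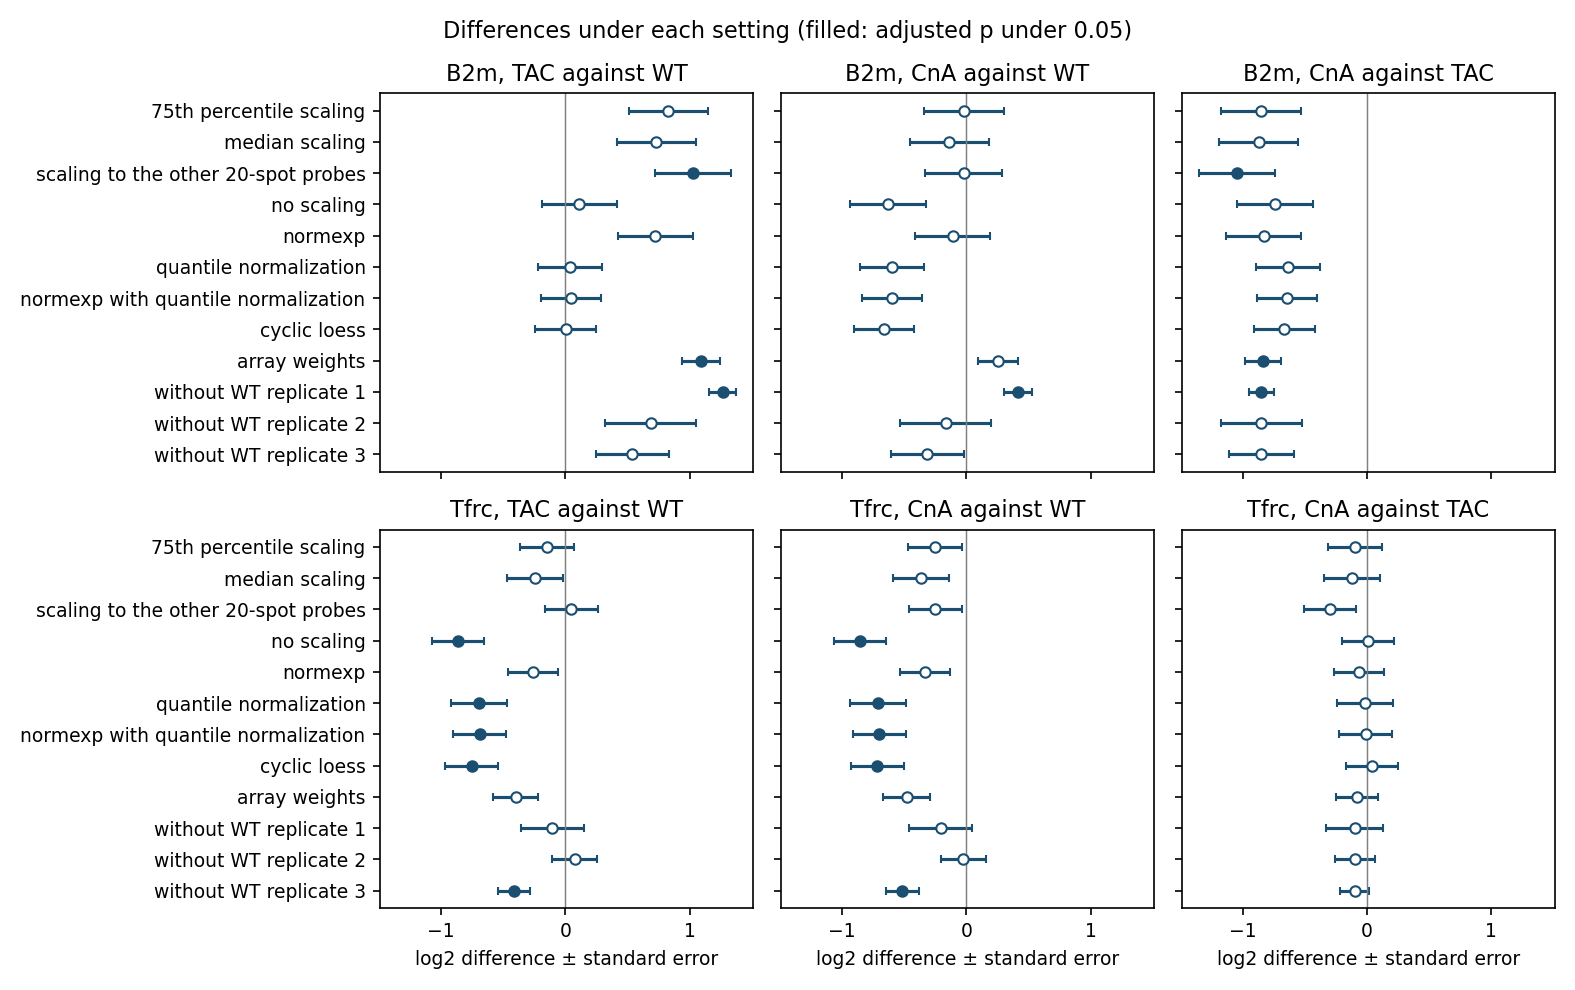
Each panel shows a log2 difference between group means (horizontal axis, ± standard error from limma) for B2m in the upper panels and Tfrc in the lower, under 12 settings, with 3 arrays a group or 2 WT arrays where 1 is left out. Filled points passed an adjusted p of 0.05. The B2m difference between CnA and TAC is negative in every setting drawn, while differences against WT shift with the scaling and with the WT array left out.

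Tfrc signal was nearly level between the TAC and CnA arrays and scattered in WT. Its scaled log2 signal was 5.45, 5.42 and 5.53 on TAC replicates 1 to 3. On CnA replicates 1 to 3 it was 5.44, 5.30 and 5.36. On WT replicates 1 to 3 it was 5.70, 6.06 and 5.08. The WT arrays held both the highest and the lowest Tfrc signal of the study, and their order was not that of B2m: WT replicate 2 was highest for Tfrc and WT replicate 1 for B2m. The group means were 5.62 ± 0.49 for WT, 5.47 ± 0.06 for TAC and 5.37 ± 0.07 for CnA (SD, n = 3 each).

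The order of the Tfrc means was WT, TAC and CnA, and the arrays of neighbours in that order overlapped. In intensity, the Tfrc means of spots were 22224, 29584 and 15374 on WT replicates 1 to 3, and every WT array was above all others. They were 11460, 11924 and 12226 on the TAC arrays, and 12272, 11288 and 12319 on the CnA arrays. The step from intensity to scaled signal thus took Tfrc from separate to overlapping groups against WT.

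Between TAC and WT, the Tfrc log2 difference was -0.15 (SE 0.22, 95% interval -0.65 to 0.35), with a limma adjusted p of 0.573. Between CnA and WT it was -0.25 (SE 0.22, 95% interval -0.74 to 0.25), with a limma adjusted p of 0.359. Between CnA and TAC it was -0.10 (SE 0.22, 95% interval -0.60 to 0.40), with a limma adjusted p of 0.802. The groups overlapped in all 3 comparisons.

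The Tfrc comparisons with WT crossed the threshold under some of the other scalings. Median scaling gave -0.25 for TAC and -0.36 for CnA against WT, with adjusted p of 0.379 and 0.205 by limma, and normexp gave -0.26 and -0.33, with adjusted p of 0.257 and 0.174 by limma. Under quantile normalization the difference between TAC and WT was -0.69 with an adjusted p of 0.0291 by limma, where 55.8% of probes were called. That between CnA and WT was -0.71 with an adjusted p of 0.0283 by limma, where 53.3% were called. Without any scaling the differences were -0.87 and -0.86, with adjusted p of 0.0075 and 0.00801 by limma, where 54.9% and 56.1% of probes were called. Under cyclic loess they were -0.75 and -0.71, with adjusted p of 0.0181 and 0.0224 by limma, where 48.9% and 50.9% were called. Scaled to the other 20-spot probes, TAC differed from WT by 0.048 and CnA by -0.25, with adjusted p of 0.849 and 0.345 by limma.

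Tfrc against WT also depended on WT replicate 3, its lowest array. Without that array the difference between TAC and WT was -0.41 with an adjusted p of 0.0303 by limma, where 56.1% of probes were called. The difference between CnA and WT was then -0.51 with an adjusted p of 0.0143 by limma, where 51.6% were called. Because the Tfrc signal itself singled out WT replicate 3, these p-values show dependence on 1 array. They, too, are no independent support for a difference. Without WT replicate 2, the highest, the differences were 0.074 and -0.025. The comparison of CnA with TAC, which does not use the WT level, lay between -0.30 and 0.040 over all alternatives and passed the test in none.

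The difference of both log2 signals on an array does not change when the whole array is made brighter or dimmer, so it sets B2m against Tfrc free of a scaling factor. Only its changes between arrays can be read, since signals of different probes are not levels on one scale. It was 2.66, 2.68 and 2.70 on TAC replicates 1 to 3. On CnA replicates 1 to 3 it was 1.91, 1.93 and 1.95, and on WT replicates 1 to 3 it was 2.49, 0.97 and 1.65. All TAC arrays lay above all other arrays, and the CnA arrays lay within the WT range.

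Relative to Tfrc, B2m was thus 0.98 higher in TAC than in WT on the log2 scale, with an exact two-sided permutation p of 0.1 (0.15 after Benjamini-Hochberg adjustment over the 3 comparisons). Relative to Tfrc it was 0.75 higher in TAC than in CnA, with the same exact permutation p of 0.1 and 0.15 after adjustment. The smallest p that 3 arrays against 3 can give is 0.1. Between CnA and WT the change was 0.23, with an exact two-sided permutation p of 0.7 (0.7 after adjustment). Without WT replicate 1 the changes against WT were 1.37 for TAC and 0.62 for CnA. The comparisons share arrays. The means were 2.68 ± 0.02 for TAC, 1.93 ± 0.02 for CnA and 1.70 ± 0.76 for WT (SD, n = 3 each).

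**Figure D3:**
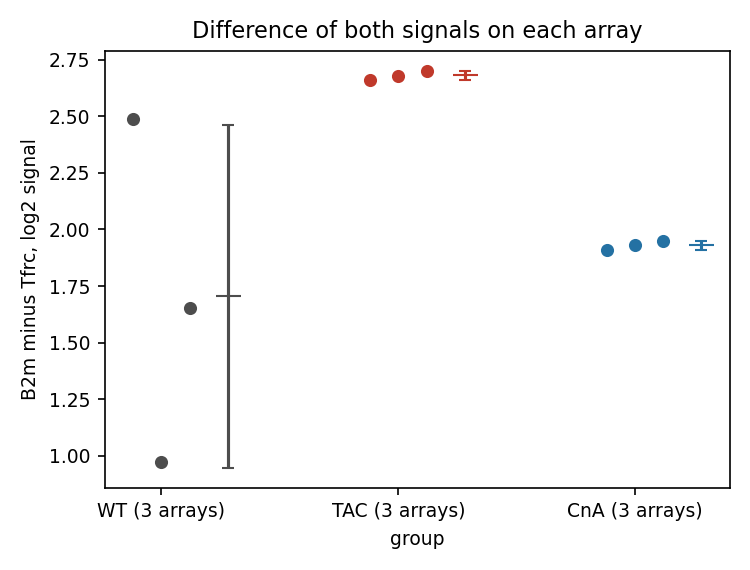
The vertical axis shows the B2m minus the Tfrc log2 signal on each array, by group, with points for arrays and bars for the mean ± SD over 3 arrays. TAC arrays sit at 2.66 to 2.70 and CnA arrays at 1.91 to 1.95, with WT arrays from 0.97 to 2.49.

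Against the other reference genes with 20 spots, B2m and Tfrc were the most variable among WT arrays. The WT SD of B2m, 0.77, was the largest of the 15 and that of Tfrc, 0.49, was next. Without WT replicate 1 this order turned, with 0.69 for Tfrc and 0.21 for B2m over the remaining pair of arrays, still the highest of the 15. Over all tested probes, 93.4% had a smaller WT SD than B2m and 83.0% a smaller one than Tfrc. By the largest difference between group means, Tfrc had rank 3 of 15 from the smallest, at 0.25, and B2m had rank 10, at 0.85, under 75th percentile scaling. The rank of Tfrc was 10 under quantile normalization, at 0.71, and under cyclic loess, at 0.75, and 7 without scaling, at 0.87. That of B2m was 9 under quantile normalization, at 0.63, and under cyclic loess, at 0.66, and 6 without scaling, at 0.74. The order of both genes thus turned under these settings. WT replicate 1 lay 1.31 above the mean of WT replicates 2 and 3 for B2m and 0.13 above it for Tfrc. The median of the bright probes was 0.41 above it, and that of all tested probes 0.08. Of the 14 other 20-spot probes, 8 were also higher on WT replicate 1, and all 14 lay between -0.53 and 0.71; 1.64% of tested probes exceeded B2m.

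**Figure D4:**
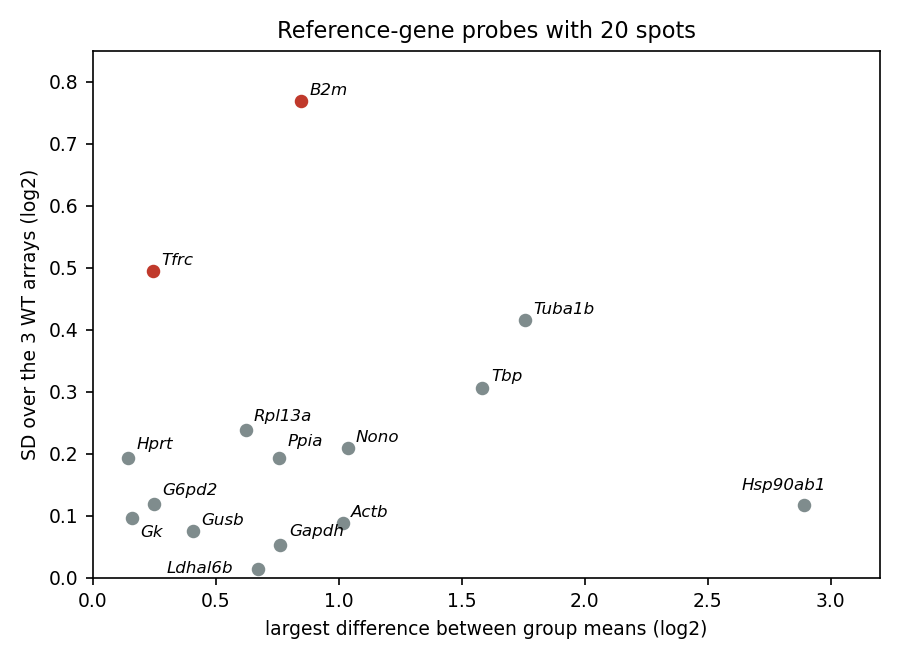
Each point is one of the 15 reference-gene probes with 20 spots. The horizontal axis is the largest difference between group means and the vertical axis the SD over the 3 WT arrays, both in log2 units of signal scaled to the 75th percentile. B2m and Tfrc, in red, have the largest SDs over all 3 WT arrays, 0.77 and 0.49, and the largest group difference of Tfrc is 0.25 at this scaling.

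Likeness to other reference genes was measured as the root mean square difference of the profiles over the 9 arrays, each centred on its own mean. The probe most like B2m was Hprt, a purine salvage enzyme, at 0.45, followed by Gapdh, a glycolytic enzyme, also at 0.45. The probes most like Tfrc by this measure were Hprt at 0.24 and G6pd2, a glucose-6-phosphate dehydrogenase, at 0.29. The measure keeps the size of each profile, so a probe with little spread can score as like without moving together with the other. Over the 9 arrays the SD was 0.13 for Hprt, 0.14 for G6pd2 and 0.35 for Gapdh, beside 0.57 for B2m and 0.27 for Tfrc. B2m and Tfrc differed from each other by 0.55, which gave Tfrc rank 5 of 14 for B2m and B2m rank 11 of 14 for Tfrc. Hprt had log2 differences of 0.040 between TAC and WT and -0.14 between CnA and TAC. Under quantile normalization Hprt differed by -0.47 between TAC and WT, with an adjusted p of 0.00193 by limma, a shift like that of Tfrc. Gapdh was higher by 0.76 in TAC and by 0.58 in CnA than in WT, with limma adjusted p of 0.00011 and 0.00057, but by 0.024 and 0.027 under quantile normalization, and cyclic loess turned both signs (-0.37 and -0.29). G6pd2 differed by -0.25 between TAC and WT and by -0.26 under quantile normalization. Other scalings moved it more, to -0.34 under median scaling, -0.47 under cyclic loess and -0.96 without scaling. Scaled to the other 20-spot probes, it was -0.051. Between CnA and TAC under quantile normalization, Gapdh differed by 0.0033 and Hprt by -0.064, beside -0.63 for B2m, which did not pass there. Scaled to the other 20-spot probes, Gapdh differed by -0.38 and Hprt by -0.34, with adjusted p of 0.0135 and 0.0452 by limma. At that scaling B2m differed by -1.05, G6pd2 by -0.064 and the median of all tested probes by -0.24.

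The file headers give each array a scan date and a position by row and column. Arrays with the same scan date were taken to share a slide, which the headers do not state. The rows of these slides follow the groups in part. All WT arrays and TAC replicate 1 share a row, and TAC replicates 2 and 3 share another with CnA replicates 1 and 2. CnA replicate 3 had a scan date of its own and was thus taken to lie alone on a separate slide. Within the row of the WT arrays, B2m of TAC replicate 1 was 0.79 above the WT mean, and Tfrc differed by -0.16. Within the other row, the B2m difference between the CnA and the TAC arrays was -0.87, and Tfrc differed by -0.10. No row holds both WT and CnA arrays, so that for them row and group cannot be told apart within a row. With the row as a block, the adjusted p of B2m by limma was 0.254 between TAC and WT and 0.315 between CnA and TAC.

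Other genes of class I antigen presentation and of iron handling were sought by matching the probes' RefSeq accessions to the RefSeq gene table, which named 112 symbols. Of 22 class I genes and 24 iron genes listed, 0 had a probe named in this way, so none is described here. The same held for 43 markers of cardiac cell types, so that the labelled tissue was not checked against its markers. Whether the makeup of cells moved with B2m or Tfrc was not tested.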

How the data were processed

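Total RNA of cardiac tissue was hybridised to 9 arrays, 3 per group. Per the labels' protocols, ribosomal RNA was removed and cRNA was made by random priming. Per the file headers, arrays were read in 1 channel by Agilent Feature Extraction 11.0 with an mm9 design; the labels also name a second dye, not analysed here. The deposited values are processed signal intensity per spot. From these, spots with an outlier flag were dropped, log2 intensities were averaged over the spots of a probe, and each array's 75th percentile was subtracted. Of 59709 probes, 130 were left out for flags, and 44224 were tested, those whose signal stood well above background in every array of some group, with limma 3.58.1 in R 4.3.3, with a mean per group and Benjamini-Hochberg adjustment. The deposited value tables list neither probe and were not used. Named genes were B2m, Tfrc and, for each, the 2 most similar 20-spot probes, by the root mean square difference of centred profiles; lists of class I, iron and marker genes were kept where a probe was named. Members and lists were chosen with earlier results of these data known. The number of arrays limits the precision. Alternatives changed the scaling, background correction, filter, spots, blocks, weights and arrays; the block by slide row, the comparison within a row and cyclic loess were chosen after seeing the data.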

Additional observations from a re-analysis of the deposited data

How the results depend on the processing

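Over 150 alternative values of the 6 differences, 124 kept their direction and side of the threshold, 19 passed the test where the reported fit did not, and 7 turned the direction, 1 of which also passed (20 in all). Limma was used throughout. Some alternatives cannot move a difference, such as the filters, the replicate block and leaving out an array of the third group. Their direction was fixed in advance, and only their p could change. For B2m between TAC and WT, the reported 0.83 passed under scaling to the other 20-spot probes (1.02), the filter on all 9 arrays (0.83, adjusted p 0.0437), the median over spots (0.84, adjusted p 0.0491) and array weights (1.09), and was 0.54 to 1.26 leaving out 1 array. Between CnA and WT, B2m was 0.25 with array weights and -0.31 to 0.41 leaving out 1 array (0.011 without CnA replicate 2). Between CnA and TAC, B2m passed at -1.05 (scaling to the other 20-spot probes), -0.85 (2 groups alone) and -0.83 (array weights), and was -0.87 to -0.81 leaving out 1 array. Tfrc between TAC and WT was -0.69 under quantile normalization with or without normexp, -0.87 unscaled, -0.75 under cyclic loess, 0.048 scaled to the other 20-spot probes, and -0.41 to 0.074 leaving out 1 array. Tfrc between CnA and WT was -0.71, -0.70 with normexp, -0.86 and -0.71 in that order, and -0.51 to -0.025 leaving out 1 array. Tfrc between CnA and TAC was 0.010 unscaled and 0.040 under cyclic loess, and -0.13 to -0.07 leaving out 1 array. The change of B2m relative to Tfrc between CnA and TAC was -0.62 under quantile normalization. Leaving out 1 array, it was -0.76 to -0.74 there, 0.61 to 1.37 between TAC and WT, and -0.14 to 0.62 between CnA and WT. Why the values moved with these settings was not tested.

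The count of probes called between CnA and TAC, 7713, was 13024 scaled to the other 20-spot probes, 2882 with the slide row as a block, 12055 with 2 groups alone, 15143 with array weights and 4342 to 11884 leaving out 1 array. Between CnA and WT it was 8313 with the slide row as a block, against 25097. Same-numbered arrays deviated with correlations of -0.22 to -0.02. These were not set beside correlations of arrays with different numbers, so whether the numbers pair arrays is not known. With the replicate block, B2m was 0.83, -0.021 and -0.85 and Tfrc -0.15, -0.25 and -0.10 (TAC minus WT, CnA minus WT and CnA minus TAC), none past the threshold, and 24653, 23064 and 5337 probes were called. The pooled SEs, 0.32 for B2m and 0.22 for Tfrc, carry the WT scatter; the SE was 0.077 and 0.076 with TAC and CnA alone.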
